A study of Mus musculus with 32 samples.

Results

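The genes described here encode the pores and subunits of 3 families of voltage-gated ion channels: sodium channels, calcium channels, and the hyperpolarization-activated channels of the HCN family. Members were all protein-coding genes whose symbol starts with Scn and a digit, with Cacna, Cacnb or Cacng, or with Hcn and a digit, and that reached 10 counts in at least 4 of the 32 libraries. Of 44 genes with such a symbol, 42 met this rule, out of 54146 gene identifiers in all and 15164 protein-coding genes that met the same count rule. The other two, Cacna1f, the calcium pore known from the retina, and Scn4a, the sodium pore of skeletal muscle, reached at most 8 and 5 counts in any library.

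In neurons, sodium channels open on depolarization and carry the upstroke of the action potential, and their beta subunits tune gating and the number of channels at the surface. Calcium channels turn depolarization into calcium entry. High-voltage-activated pores trigger transmitter release and signal to the nucleus, while T-type pores open near rest and favour burst firing. The alpha2delta and beta subunits bring calcium pores to the membrane. Most gamma subunits are transmembrane AMPA receptor regulatory proteins (TARPs), which traffic and gate glutamate receptors rather than calcium pores. HCN channels open on hyperpolarization, pass an inward cation current, and set the resting potential and the rhythm of firing. The 42 members comprised 9 sodium channel pores (alpha subunits), 4 sodium beta subunits, 6 high-voltage-activated and 3 T-type calcium pores, 4 alpha2delta, 4 calcium beta and 8 gamma genes, and 4 HCN genes.

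RNA was sequenced from single hemispheres of hippocampus or striatum of male C57BL/6J mice aged 12 weeks. Mice received 30 mg/kg of the drug CI-994, which blocks class I histone deacetylases, or its solvent of dimethyl sulfoxide, Kolliphor and saline, by intraperitoneal injection. Behaviour began 1 hour later and was either contextual fear conditioning, in which a chamber is paired with foot shock (here 2 shocks of 0.2 mA), or equal time in that chamber unshocked (context). Tissue was taken 1 hour after behaviour. This gave 8 groups: vehicle context, vehicle conditioning, CI-994 context and CI-994 conditioning, each in both regions, with 4 libraries from 4 mice in each. All mice were injected, handled and placed in the chamber, so no group is naive. Mice of a cage shared 1 behaviour, so cage and behaviour cannot be told apart. Members that overlap another gene with reads on the opposite strand are uncertain, since the strand setting of the counting is not given in the sources used here: these include Cacna1c and Cacna1d, Cacna2d4 (overlapping Lrtm2, with up to 3762 counts), Cacng2, Scn1a and Scn9a. The labels do not say whether hippocampus and striatum libraries with the same number came from 1 mouse.

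The hippocampal libraries held 26026024 to 36670767 counts each, and the striatal ones 27418127 to 33635025. Levels are in CPM, each gene's counts relative to all counts of its library, unscaled beyond that, and values of the 4 libraries of a group are listed in the order of their replicate numbers. The tissue labels held: a list of 9 markers of striatal medium spiny neurons had a mean of 8.79 to 9.50 log2 CPM in striatal and 2.83 to 3.19 in hippocampal libraries, and 9 markers of hippocampal excitatory neurons 5.46 to 5.98 in hippocampal and 1.43 to 2.30 in striatal libraries. In hippocampus, CI-994 conditioning replicates 2 and 4 stood apart by choroid plexus markers (means of 7.19 and 7.22 log2 CPM against a region median of 1.78). In striatum, CI-994 conditioning replicate 2 and vehicle conditioning replicate 3 had the lowest means of medium spiny neuron markers (8.79 and 8.88 log2 CPM against a median of 9.36). They were set apart by rank, without a threshold, and the next lowest mean was 9.14. Member results that rest on these libraries are also given without them.

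At baseline, in vehicle context mice, hippocampus and striatum differed widely in these genes. Of 42 members, 33 passed an adjusted p of 0.05 in edgeR's quasi-likelihood test over all 32 libraries (78.6%, against 44.1% of all 19198 genes tested), 13 of them higher in hippocampus (24.2% of all genes) and 20 higher in striatum (19.9% of all genes). The 4 libraries per region did not overlap for 12 members that were higher in hippocampus (24.3% of all genes) and for 19 that were lower there (16.8%). In bulk tissue, fewer cells of a type and less RNA per cell cannot be told apart.

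Among the main sodium pores of the brain, Scn2a and Scn1a missed the threshold between the regions, while Scn8a and Scn3a differed in opposite directions. Scn2a, the pore of axon initial segments and unmyelinated axons of excitatory cells, stood at 432 ± 43.4 CPM in hippocampus and 421 ± 41.6 CPM in striatum (SD, n = 4; log2 fold change of hippocampus over striatum 0.01, SE 0.087). Scn1a, the pore best known from inhibitory interneurons, also missed the threshold (−0.10, SE 0.107). Scn8a, of axon initial segments and nodes of Ranvier, was higher in hippocampus (483 ± 25.0 against 324 ± 27.4 CPM, log2 0.55), and Scn3a, best known from the developing brain, was higher in striatum (103 ± 4.87 against 144 ± 9.74 CPM, log2 −0.51). Per kilobase of exons, Scn2a made up 38.4% ± 1.88 of the summed level of the 9 sodium pores in hippocampus and 40.8% ± 1.81 in striatum (SD, n = 4), and Scn8a 34.8% ± 2.32 and 25.4% ± 1.98.

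Scn7a, an atypical pore linked to sensing of sodium levels, stood at 5.31, 6.52, 6.07 and 6.85 CPM in the 4 vehicle context libraries of hippocampus and at 1.91, 0.543, 1.54 and 1.78 CPM in those of striatum. All hippocampal values lay above all striatal ones (log2 fold change 2.06, SE 0.33, adjusted p = 6.14e-06). The pores best known from sensory neurons (Scn9a, Scn10a, Scn11a) were each below 12 CPM in vehicle context libraries and higher in striatum. Scn9a was at 6.79 ± 1.07 CPM in hippocampus against 9.16 ± 2.30 CPM in striatum (log2 −0.46). Scn10a gave 1, 0, 0 and 0 counts in hippocampal and 18, 13, 3 and 13 counts in striatal libraries, a ratio of 45.3 for striatum over hippocampus with an exact interval of 7.75 to 1828. Scn11a gave 0, 1, 0 and 0 counts in hippocampus and 8, 9, 4 and 5 in striatum, a ratio of 25.1 (4.12 to 1028). Both rest on 1 hippocampal count, and the intervals cover counting error only.

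The sodium beta subunits differed most in make-up. Scn4b, a beta subunit linked to resurgent current, stood at 33.5, 24.6, 30.6 and 27.5 CPM in hippocampus and at 2125, 2298, 1859 and 1908 CPM in striatum. The lowest striatal library was far above the highest hippocampal one, with a 71.9-fold difference (log2 fold change −6.17, SE 0.166, adjusted p = 4.48e-22). Scn4b made up 67.7% ± 1.86 of the 4 sodium beta genes per kilobase in striatum and 2.26% ± 0.220 in hippocampus. Scn3b, which binds pores without a covalent link, was higher in hippocampus (log2 1.10). Its share per kilobase was 30.9% ± 2.82 there, against 6.03% ± 0.606 in striatum. Scn2b, which like Scn4b is disulfide-linked to the pore, was higher in striatum (log2 −0.55).

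**Figure D1:**
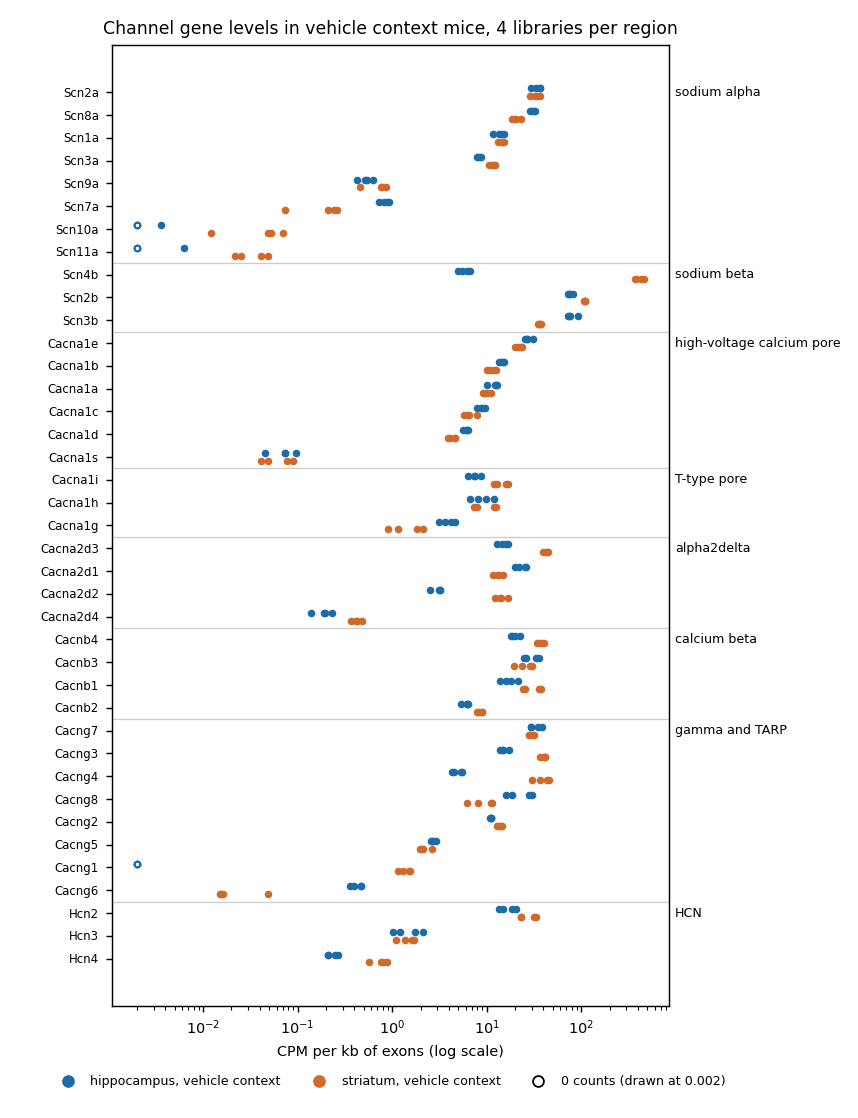
Level of 39 of the 42 channel genes in CPM per kilobase of exons (log axis) in the 4 vehicle context libraries of hippocampus (blue) and of striatum (orange), grouped by role, with open circles for 0 counts. The striatal points of Scn4b and Cacng1 lie far to the right of the hippocampal ones, and those of Scn7a and Cacng6 to the left.

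The 6 high-voltage-activated calcium pores leaned to hippocampus, 4 passing the threshold there and 0 in striatum. These were the L-type pores Cacna1c and Cacna1d (log2 0.40 and 0.46), the N-type pore Cacna1b (0.32) and the R-type pore Cacna1e (0.29). The P/Q-type pore Cacna1a missed it (log2 0.22, adjusted p = 0.0778), as did Cacna1s, known from skeletal muscle, which stayed below 1 CPM in these 8 libraries. The make-up of the class was alike in both regions: Cacna1e took 40.0% ± 1.89 of the level per kilobase in hippocampus and 40.7% ± 1.86 in striatum, and Cacna1b 21.1% ± 0.766 and 20.9% ± 0.824 (SD, n = 4).

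The T-type pores and alpha2delta subunits differed in both directions. Cacna1g, a T-type pore of thalamic relay cells, stood at 42.1, 46.4, 31.9 and 36.9 CPM in hippocampus and at 18.7, 11.6, 9.24 and 21.6 CPM in striatum. The groups did not overlap (log2 1.33, SE 0.375, adjusted p = 0.00442). The T-type pore Cacna1i was higher in striatum (log2 −0.98), where it held 56.1% ± 1.99 of the T-type level per kilobase against 36.6% ± 2.88, and Cacna1h missed the threshold (−0.14, SE 0.221). Of the alpha2delta genes, Cacna2d1, the binding site of gabapentin-type drugs, was higher in hippocampus (log2 0.79), with 56.0% ± 1.13 of the class per kilobase against 18.8% ± 1.77. Cacna2d2, Cacna2d3 and Cacna2d4 were higher in striatum (log2 −2.28, −1.52 and −1.18), Cacna2d3 taking 60.2% ± 0.730 of the class there and 36.3% ± 1.16 in hippocampus. The calcium beta subunits Cacnb1, Cacnb2 and Cacnb4 were higher in striatum (log2 −0.84, −0.51 and −0.94), and Cacnb3 missed the threshold (0.19, SE 0.148).

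The gamma genes also held wide contrasts. Cacng1, the gamma subunit known from skeletal muscle, gave 0 counts in all 4 hippocampal libraries and 62, 61, 51 and 48 counts in the striatal ones. Striatum was at least 71.4-fold higher, taking 3 counts over the hippocampal group as the limit that 0 allows. Cacng6, its close relative, ran the other way, with 25, 21, 29 and 28 counts in hippocampus against 1, 3, 1 and 1 in striatum, a ratio of 17.8 (exact interval 7.91 to 49.6). Among the TARPs, Cacng8 was higher in hippocampus (log2 1.32), and Cacng2, Cacng3 and Cacng4 were higher in striatum (log2 −0.33, −1.42 and −3.01). Cacng4 took 28.6% ± 2.33 of the gamma level per kilobase in striatum and 5.44% ± 0.125 in hippocampus, while Cacng8 took 6.72% ± 1.36 and 25.3% ± 4.19. Cacng5 and Cacng7, TARPs of a second subtype, missed the threshold (log2 0.28 and 0.12). Several of these genes neighbour each other on mm10: Cacng1, Cacng4 and Cacng5 lie in a row on chromosome 11 from 107703218 to 107915055, and Cacng7, Cacng8 and Cacng6 on chromosome 7 from 3332955 to 3435667.

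Of the HCN genes, Hcn2, a slower and strongly cAMP-gated subunit, and Hcn4, the slow pacemaker subunit of the heart, were higher in striatum (log2 −0.75 and −1.71), and Hcn3 missed the threshold (0.04, SE 0.237). Per kilobase, Hcn2 was the leading HCN gene in both regions, with 67.9% ± 4.99 in hippocampus and 88.1% ± 1.66 in striatum. With each of the 8 vehicle context libraries left out in turn, 30 to 33 members passed, and the genes given above by library kept their calls. With replicate numbers as a block, a pairing taken from correlations (r from 0.145 to 0.43) and not from a label, the count moved by less than 1.5 times. These r are of the vehicle context groups, while the block covered all 32 libraries. In striatum after conditioning, r between CI-994 and vehicle went down to −0.305.

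**Figure D2:**
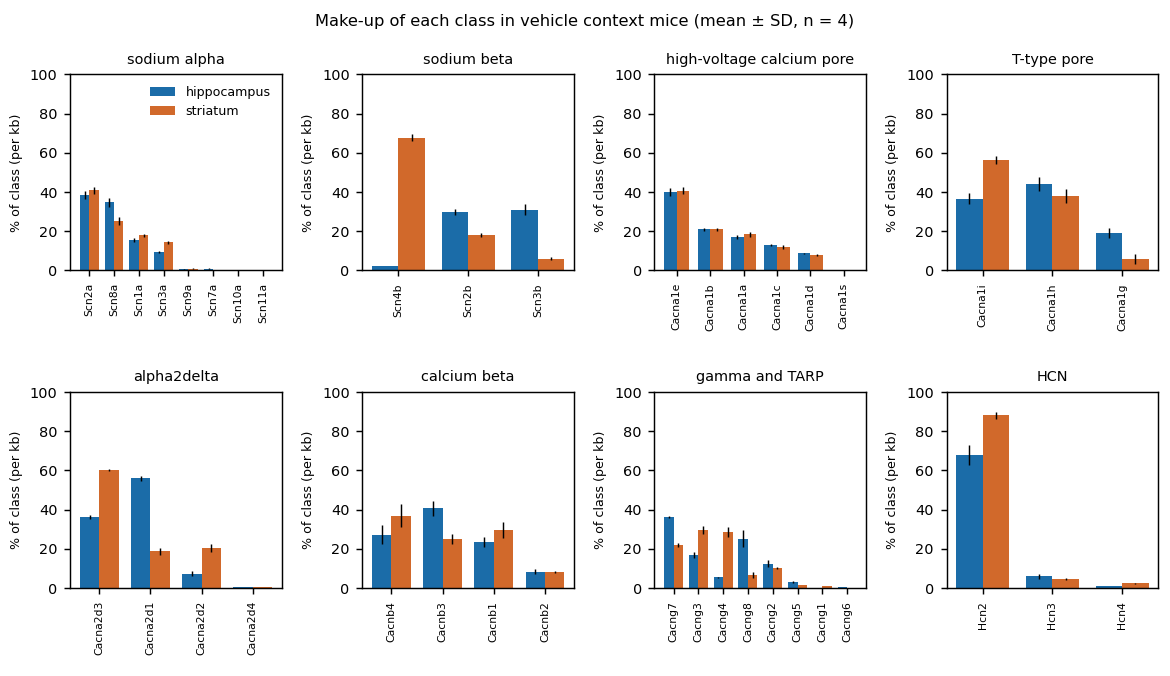
Share of 39 of the 42 genes in the summed level per kilobase of exons of its class in vehicle context mice, as bars of the mean with SD over 4 libraries for hippocampus (blue) and striatum (orange). Scn4b fills most of the sodium beta class in striatum, and Cacna2d1 and Cacna2d3 exchange the first place among the alpha2delta genes.

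The summed level of each class was also compared across the 4 groups of a region, as a description. Group means of the summed sodium pores ran from 1151 to 1226 CPM in hippocampus and from 1050.1 to 1167 CPM in striatum, and those of the high-voltage-activated pores from 1175 to 1259.8 and from 982 to 1067 CPM. The sodium beta sum ran from 992 to 1054 CPM in hippocampus and from 2779 to 3118 CPM in striatum. The HCN sum ran from 172 to 176 and from 120.0 to 137 CPM. For scale, the sodium beta sum was 2831 ± 374 CPM in vehicle conditioning striatum, and the sodium pores' sum was 1050.1 ± 55.4 CPM with vehicle and 1146 ± 46.5 CPM with CI-994 there (SD, n = 4).

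The next question is what CI-994 changed after each behaviour. In striatum after context, 11 of 41 members tested rose and 0 fell (26.8%, against 24.8% of all 18256 genes called in either direction and 10.3% called higher). The 6 whose libraries did not overlap between the groups were all higher with CI-994 (7.26% of all genes). The members came from several roles: the sodium pores Scn3a and Scn8a, the beta subunits Scn2b and Scn3b, the calcium pores Cacna1d, Cacna1e and Cacna1s, and the gamma genes Cacng1, Cacng2, Cacng3 and Cacng5. The T-type, alpha2delta, calcium beta and HCN genes had 0 calls. The median log2 fold change was 0.23 over the members tested, against 0.03 over all genes, and 37 of 41 were above 0. Without 1 library, the count was 4 (vehicle replicate 1), 6 (vehicle replicate 3), 6 (vehicle replicate 4), 7 (CI-994 replicate 1) and 5 (CI-994 replicate 2). Without the libraries that stood apart, which lie in other groups of the fit, it was 11.

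In striatum after conditioning, 6 of 41 members rose and 0 fell (14.6%, against 24.2% of all genes called in either direction and 9.57% called higher), and 3 did not overlap between the groups, all higher with CI-994 (5.74% of all genes). These were the sodium pores Scn2a, Scn3a and Scn11a, the beta subunit Scn3b and the TARPs Cacng3 and Cacng5. The median log2 fold change was 0.14 over the members and 0.03 over all genes, with 33 of 41 above 0. Without the libraries that stood apart, 7 members passed. The 2 comparisons share no libraries: each has its own vehicle and CI-994 mice.

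Scn3b (mm10 chromosome 9, 40269217 to 40291618, forward strand) was the only member called in 3 of the 4 drug comparisons. In striatum it stood at 189, 197, 202 and 206 CPM with vehicle and 219, 225, 219 and 237 CPM with CI-994 after context, and at 166, 187, 204 and 186 against 215, 207, 227 and 205 CPM after conditioning. Every CI-994 library lay above every vehicle library of the same behaviour. The fitted rise was 1.23-fold after context (log2 0.29, SE 0.070, adjusted p = 0.0055) and 1.22-fold after conditioning (log2 0.29, SE 0.070, adjusted p = 0.0069). Both calls held with each library left out in turn. In hippocampus the level was about 2.14-fold higher at baseline, at 409, 397, 509 and 419.9 CPM with vehicle and 493, 438, 564 and 507 CPM with CI-994 after context, where the groups overlapped through vehicle replicate 3. The fitted log2 change was 0.29 (SE 0.098, adjusted p = 0.049), a call lost in 6 of the 8 fits that leave out 1 library (vehicle replicate 1, 2 or 4, CI-994 replicate 1, 3 or 4), with an adjusted p from 0.00856 to 0.155 over the 8. After conditioning the hippocampal values were 477, 410.2, 459.6 and 428 CPM with vehicle and 451, 419, 479 and 427 CPM with CI-994, which overlapped (log2 0.07, adjusted p = 0.708).

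Scn3a, Cacng3 and Cacng5 were called in both striatal comparisons, and their values by library were chosen for print after they were seen. Scn3a (chromosome 2, 65457118 to 65567627, reverse strand) stood at 131, 144, 154 and 148 CPM with vehicle and 156, 226, 187 and 213 CPM with CI-994 after context. After conditioning it stood at 145, 122, 134 and 135 CPM with vehicle and 202, 158, 215 and 170.0 CPM with CI-994. The groups did not overlap in either case (log2 0.55, SE 0.122, adjusted p = 0.00309, and 0.56, SE 0.122, adjusted p = 0.00285), and both calls held with each library left out. In hippocampus the log2 difference of Scn3a was 0.20 after context (adjusted p = 0.0613, and 0.00377 with replicate numbers as a block) and 0.05 after conditioning (adjusted p = 0.728). The difference between the regions missed the threshold in both behaviours (adjusted p = 0.416 and 0.147).

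Cacng5 (chromosome 11, 107874605 to 107915055, reverse strand) had the largest rise among the members called in striatum after context. It stood at 7.84, 10.1, 7.57 and 8.18 CPM with vehicle and 21.3, 17.9, 18.0 and 21.7 CPM with CI-994 after context, and at 4.75, 11.1, 13.2 and 8.76 against 15.6, 55.2, 15.0 and 19.0 CPM after conditioning. All CI-994 libraries were above all vehicle libraries of their behaviour, and replicate 2 of CI-994 conditioning was far above the other three. The fitted rises were 2.53-fold after context (log2 1.34, SE 0.353, adjusted p = 0.0102) and 2.90-fold after conditioning (log2 1.54, SE 0.353, adjusted p = 0.0043). Without that replicate the rise after conditioning was 0.89 (adjusted p = 0.0096), and without both striatal libraries that stood apart it was 1.11 (adjusted p = 0.00134). In hippocampus the values were 10.2, 9.81, 10.5 and 11.3 CPM with vehicle and 16.5, 8.50, 12.4 and 12.6 CPM with CI-994 after context, which overlapped (log2 0.34, adjusted p = 0.201). The difference between the regions had an adjusted p of 0.459 after context and 0.112 after conditioning.

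Cacng3 (chromosome 7, 122670492 to 122769393, forward strand) stood at 112, 114, 115 and 102 CPM with vehicle and 127, 146, 121 and 126 CPM with CI-994 after context, with no overlap. After conditioning the values were 123, 89.1, 104 and 92.9 and 133, 105, 121 and 118 CPM, and vehicle replicate 1 lay among the CI-994 libraries. The log2 rises were 0.34 (adjusted p = 0.0233) and 0.31 (adjusted p = 0.0402). These calls were lost in 4 and 5 of the 8 fits that leave out 1 library, where the adjusted p reached 0.0782 without CI-994 context replicate 2 and 0.167 without vehicle conditioning replicate 2.

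Scn11a, at under 1 CPM, gave 8, 5, 3 and 3 counts with vehicle and 21, 24, 11 and 8 counts with CI-994 after conditioning in striatum, with 1 vehicle library above the lowest CI-994 library in CPM. Its log2 rise of 1.81 (SE 0.46, adjusted p = 0.00855) held with each library left out, but was 1.38 (adjusted p = 0.0676) without the striatal libraries that stood apart. Scn2a stood at 356, 395, 449 and 413 CPM with vehicle and 456, 456, 448 and 432 CPM with CI-994 after conditioning, and vehicle replicate 3 lay above 2 of the CI-994 libraries. Its log2 rise of 0.24 (adjusted p = 0.049) was lost in 7 of 8 fits that leave out 1 library, all but that without vehicle replicate 3, with an adjusted p from 0.0141 to 0.153.

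Promoter sequence was taken from RefSeq (GRCm38.p6), as the 250 bases before each start. Of the members, 30 had 41 such windows, 21 of them with no exon base of any GENCODE gene. The windows held a median of 56.8% G or C and 9 CG pairs, against 52.4% and 6 over all 32851 windows. The GC box GGGCGG was in 39% of member windows and 32.7% of all, the TATA motif TATAAA in 4.88% and 12.4%, the cAMP response element core TGACG in 14.6% and 17.8%, the AP-1 motif TGANTCA in 2.44% and 6.75%, and the E-box CACGTG in 0% and 6.02%, on either strand. For 3 genes called in striatum after conditioning a window lay outside the gene and free of exons, and these windows are shown on that ground alone. Capitals mark matches to these motifs, each counted on its own, so matches of different motifs could overlap.
Cacng5 chr11:107915056-107915305 (reverse strand): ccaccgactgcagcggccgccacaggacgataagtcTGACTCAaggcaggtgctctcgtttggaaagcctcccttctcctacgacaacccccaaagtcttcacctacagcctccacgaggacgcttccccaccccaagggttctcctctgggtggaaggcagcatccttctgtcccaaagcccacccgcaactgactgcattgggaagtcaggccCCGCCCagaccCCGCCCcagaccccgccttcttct
Scn11a chr9:119825457-119825706 (reverse strand): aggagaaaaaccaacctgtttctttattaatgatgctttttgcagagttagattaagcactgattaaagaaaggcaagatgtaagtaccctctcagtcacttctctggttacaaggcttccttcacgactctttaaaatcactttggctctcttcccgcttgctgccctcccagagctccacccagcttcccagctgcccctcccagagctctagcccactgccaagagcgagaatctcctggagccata
Scn2a chr2:65620519-65620768 (forward strand): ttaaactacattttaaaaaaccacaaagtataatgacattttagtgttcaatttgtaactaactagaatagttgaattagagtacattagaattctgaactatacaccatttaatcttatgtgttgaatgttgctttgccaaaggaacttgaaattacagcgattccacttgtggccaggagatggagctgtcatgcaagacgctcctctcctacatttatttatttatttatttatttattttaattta
The Cacng5 window held 62% G or C, 2 GC boxes and 1 AP-1 motif. That of Scn11a held 48% and that of Scn2a 29.6%, with 0 matches in both. Cacng5 and Scn2a each had a further window free of exons but inside the gene, which is not shown. It held 56.8% G or C and 0 matches for Cacng5, and 53.2% and 1 TATA motif for Scn2a, so the contrast depends on the window. The absence of a match says only that these letters are not in these windows.

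**Figure D3:**
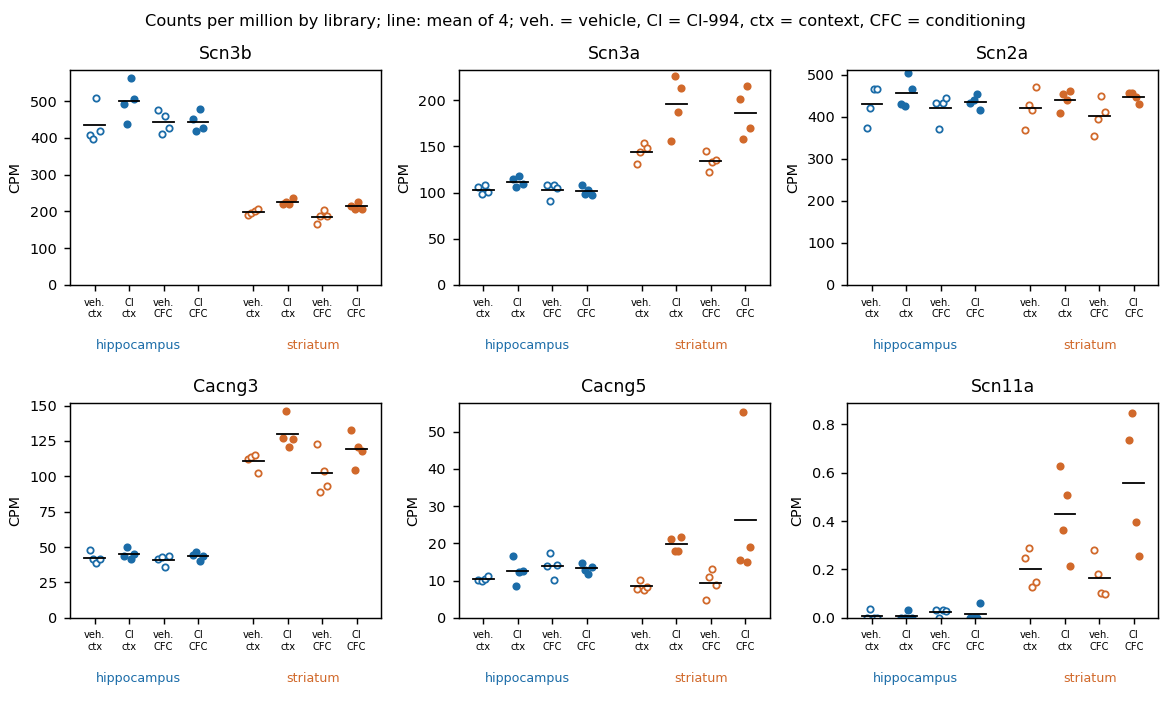
Level in CPM of 6 genes called in striatum after conditioning, 1 point per library (open for vehicle, filled for CI-994) and a line at the mean of 4, by region and behaviour. In striatum the filled points of Scn3b, Scn3a and Cacng5 lie above the open points of the same behaviour, and 1 Cacng5 library lies at 55.2 CPM.

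The other members called in striatum after context rose less than 2-fold. Scn2b rose by 0.28 on the log2 scale, Scn8a by 0.23, Cacna1d by 0.23, Cacna1e by 0.26 and Cacng2 by 0.25. The muscle-type genes Cacna1s and Cacng1, at most 1.09 and 3.33 CPM in any striatal library, rose by 0.97 (SE 0.282, adjusted p = 0.0183) and 0.81 (SE 0.258, adjusted p = 0.0288). Scn2b stood at 518, 517, 509.5 and 499 CPM with vehicle and 540.0, 579.6, 587 and 587 CPM with CI-994, with no overlap. Leaving out 1 library ended the call of Scn2b in 2 of 8 fits, of Cacna1s in 3, of Cacna1d in 4, and of Scn8a, Cacna1e, Cacng1 and Cacng2 in 5. Across those fits the highest adjusted p ran from 0.053 for Scn2b, without vehicle replicate 2, to 0.176 for Cacna1d, without vehicle replicate 1.

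In hippocampus after conditioning, 0 of 39 members passed (0%, against 20.8% of all 18261 genes called in either direction and 7.42% called higher), and 2 had an unadjusted p under 0.05. These were Cacna2d2 (log2 0.35, adjusted p = 0.058) and Cacng2 (0.15, adjusted p = 0.101). In DESeq2's Wald test both passed and no other member did. In edgeR's test 2 members passed without vehicle replicate 2, 1 without CI-994 replicate 1, and 0 without both libraries that stood apart by choroid plexus markers. After context, 1 of 39 passed, Scn3b (2.56%, against 19.8% of all genes called in either direction and 6.55% called higher). None of the members had groups without overlap, higher or lower, in either hippocampal comparison (5.01% and 5.02% of all genes for higher, 18.7% and 19.6% for lower). The median log2 change of the members was 0.07 after conditioning and 0.12 after context, against 0.01 over all genes for both, with 32 and 35 of 39 above 0.

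In the context comparison of hippocampus, same-numbered libraries deviated together (r from 0.2 to 0.417 across genes). Of the 4 CI-994 libraries, 3 correlated best with the vehicle library of their own number. No label gives such a pairing. With the number as a block, 6 of 39 members passed there, against 29% of all genes called in either direction in that fit. All 6 were higher: Scn3b (adjusted p = 0.00174), Scn3a (0.00377), Cacna1g (0.00869), Cacna1d (0.0289), Cacng3 (0.0366) and Cacna1h (0.0409). With offsets for GC content and length added to the block, a fit added after seeing the data, 17 passed, all higher. In that fit 36.4% of all genes were called in either direction. The share of all genes called higher is not given here for either block fit.

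**Figure D4:**
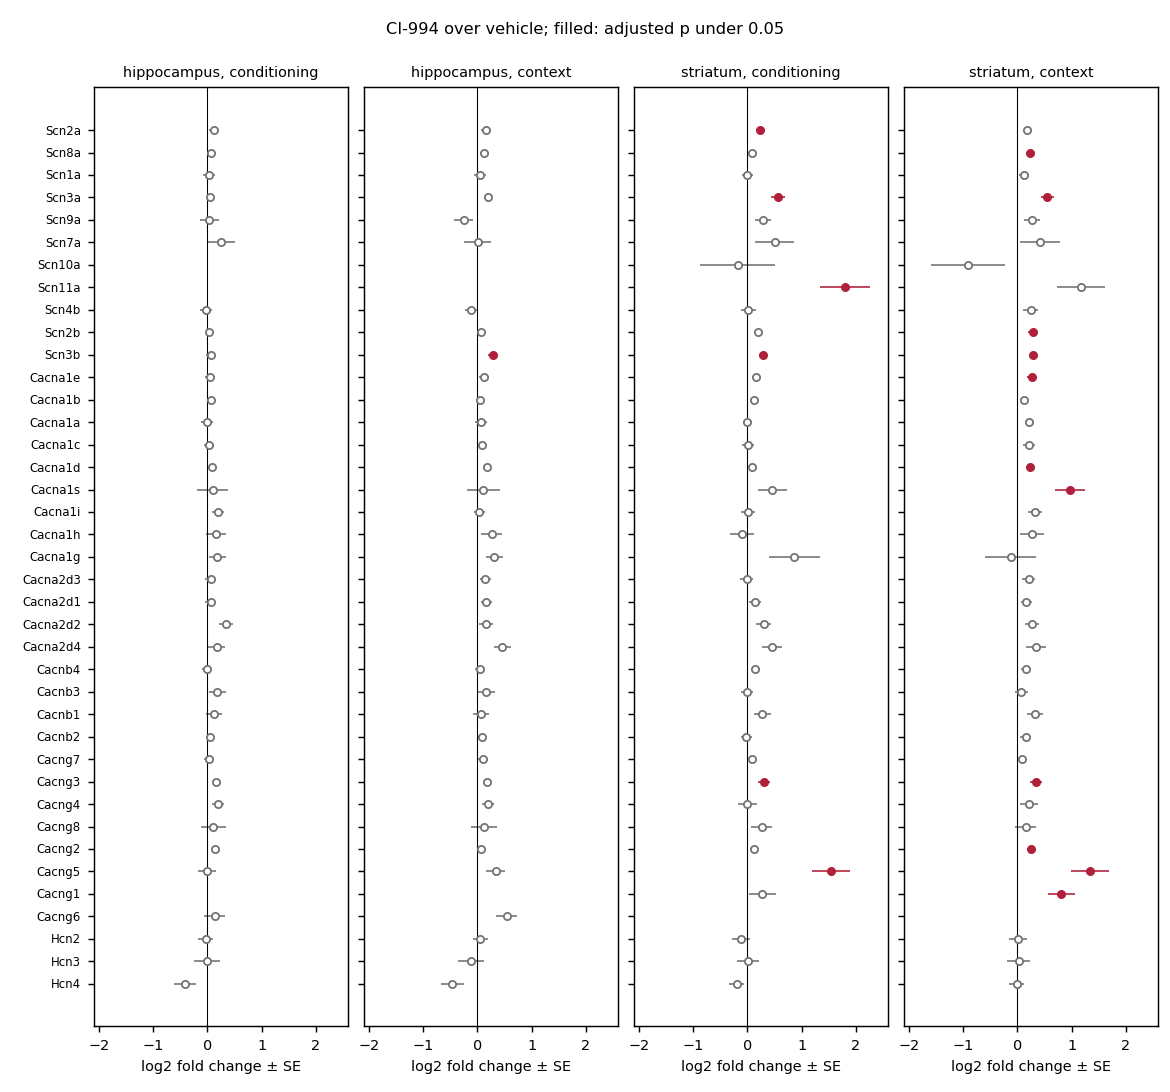
Log2 fold change of CI-994 over vehicle with its standard error for 39 of the 42 channel genes in the 4 drug comparisons, filled where the adjusted p was under 0.05; gaps mark genes under the low-count filter. Most points lie right of 0, and the filled points lie in the striatum, apart from Scn3b in hippocampus after context.

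Of 38 members tested in all 4 drug comparisons, 24 had a log2 fold change above 0 in each and 1, Hcn4, was below 0 in each. Hcn4 stood at 1.53, 1.63, 1.28 and 1.28 CPM with vehicle and 0.845, 1.38, 0.885 and 0.802 CPM with CI-994 in hippocampus after context, overlapping through CI-994 replicate 2 (log2 −0.46, adjusted p = 0.152). The direction of small differences depended on the scaling. With each library scaled to its total alone, which moved the median of all genes in striatum after context from 0.03 to −0.09, 33 of 41 members were above 0 there in place of 37. The counts above 0 were 25 in place of 33 in striatum after conditioning, and 21 and 23 in place of 32 and 35 in hippocampus. On that scale 4 members rose and 1 fell in striatum after context, and the matching shares of all genes are not given here. The risers were Scn3a, Scn3b, Cacna1s and Cacng5. Over all genes called in striatum after context, 58.5% were lower with CI-994 under TMM scaling and 78.7% under library totals.

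Markers of several other cell types moved with the drug beside these genes, among them those of oligodendrocyte precursors, a proliferating glial type. Of 8 listed markers 5 rose in striatum after context and 6 in each of the other 3 drug comparisons, with 0 falling. Their summed level ran from 278 to 324 CPM in vehicle context and from 362 to 439 CPM in CI-994 context striatum, and from 277 to 335 against 392 to 458 CPM after conditioning. Of 7 markers of endothelial cells and pericytes, 4 rose in striatum after context (median log2 0.58) and 3 after conditioning, and 2 and 4 in hippocampus after context and conditioning. Their summed level ran from 241 to 268 CPM in vehicle context and from 281 to 336 CPM in CI-994 context striatum. Of 8 astrocyte markers, 3 rose in striatum after context and 2 after conditioning. The 9 medium spiny neuron markers were all above 0 in striatum after context, with 1 called (median log2 0.27), and had a median of 0.03 after conditioning with 0 called. Of 5 thalamic markers, 3 rose in striatum after context and 2 after conditioning. Their summed level was 177 CPM in CI-994 conditioning replicate 2, which stood apart, and 117 to 123 CPM in the other three, against 98.9 to 116 CPM in vehicle conditioning. No marker of these lists was at 0 counts in any library. Neocortical markers (5 listed) varied among striatal libraries of each group. Their means ran from 3.24 to 4.63 log2 CPM in vehicle context and from 3.12 to 3.70 in CI-994 context. Vehicle context replicates 1 and 4, at 4.14 and 4.63, lay above all CI-994 context libraries. After context 0 of these markers were called with CI-994 (median log2 −0.18). The member counts without each of these replicates are given above, and no fit left out both. After conditioning the means ran from 2.56 to 5.00 with vehicle and from 2.6 to 4.67 with CI-994. Without the 3 libraries of the conditioning groups with the highest neocortical means, 8 members passed after conditioning. This fit was added after seeing the data. Of the libraries it leaves out, CI-994 replicate 2 and vehicle replicate 3 were also those set apart by medium spiny neuron markers. Of 7 interneuron markers, 2 rose in each striatal comparison (median log2 0.02 after context and 0.25 after conditioning). Of 7 oligodendrocyte markers, 0 were called in either (median log2 −0.09 and 0.31), and of 6 microglia markers 0 and 1 rose. In hippocampus 0 interneuron, oligodendrocyte or microglia markers were called with CI-994. Over all genes, 10.3% were called higher in striatum after context and 9.57% after conditioning. The part of these cell types in the members' differences was not tested.

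Between the regions, the response to CI-994 differed in 0 of 42 members after conditioning (0.266% of all genes called) and in 0 of 42 after context (0.62% of all genes). The smallest adjusted p was that of Cacng5 after conditioning, 0.112, with a log2 difference of −1.55 (SE 0.411) for hippocampus over striatum. In DESeq2's Wald test Cacng5 passed after conditioning (adjusted p = 0.0258), and in a fit of only the groups compared it passed after context (adjusted p = 0.0341).

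Conditioning itself was compared with context within each drug and region. In edgeR's test 0 members and 0 genes of all passed in any of these 4 comparisons (0% of all genes), with unadjusted p under 0.05 for 3 of 39 members in vehicle hippocampus, 1 of 39 in CI-994 hippocampus, 1 of 41 in vehicle striatum and 3 of 41 in CI-994 striatum. DESeq2's Wald test called 1, 0, 0 and 2 genes of all, with 0 members. The median log2 change of the members ran from −0.04 to 0.02 across the 4 comparisons. The median standard error was 0.108 in hippocampus and 0.126 in striatum. The interaction of drug and conditioning also gave 0 members and 0 genes of all in edgeR (0% of all genes), and 0 members had an unadjusted p under 0.05 in either region.

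The 29 members called in none of the drug comparisons are described by the range of group means. In hippocampus, the interneuron pore Scn1a ran from 142 to 153 CPM across the 4 groups. The calcium pores ran from 134 to 142 CPM for Cacna1a, from 139 to 144 for Cacna1b, from 171 to 187 for Cacna1c, from 39.3 to 47.9 for Cacna1g, from 89.8 to 105 for Cacna1h and from 61.5 to 73.6 for Cacna1i. The pore-trafficking subunits ran from 291 to 307 CPM for Cacna2d1, from 120.2 to 133 for Cacnb3 and from 167 to 177 for Cacnb4. Hippocampal Cacng7 and Cacng8, both TARPs, ran from 79.1 to 81.8 and from 54.7 to 62.1 CPM, and Hcn2 from 52.8 to 56.4 CPM. In striatum, Scn4b ran from 1924 to 2246 CPM, Cacna1i from 141 to 165, Cacna2d2 from 114 to 138, Cacna2d3 from 330.0 to 396, Cacnb1 from 138 to 161, Cacnb2 from 99.7 to 115, Cacnb4 from 334 to 349, Cacng4 from 135 to 149 and Hcn2 from 83.0 to 96.1 CPM. Sparser ones were Scn7a, Scn9a, Scn10a, Cacna2d4, Cacng6, Hcn3 and Hcn4. None of these ranges stands for a test, and a p that missed the threshold does not show equal levels. Scn4b was lowest in the striatal libraries that stood apart, at 1519 CPM in vehicle conditioning replicate 3 and 1482 CPM in CI-994 conditioning replicate 2, against 1806 to 2404 CPM in the other 14.

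Other proteins that anchor, modify or accompany these channels were taken from a list of 38 genes, 36 of them tested in each region. With CI-994, 2 rose in hippocampus after conditioning (7.42% of all genes were called higher), 2 in hippocampus after context (6.55%), 7 in striatum after conditioning (9.57%) and 5 in striatum after context (10.3%), and 0 fell in each. In hippocampus Nedd4l, a ubiquitin ligase of sodium channels, and Shisa9, an AMPA receptor auxiliary protein, rose after context (log2 0.28 and 0.21), and Cabp1, a calcium sensor of calcium pores, after conditioning (0.35). Kcne2, a small subunit known from choroid plexus, had a log2 change of 7.02 after conditioning, where 2 CI-994 libraries stood apart by choroid plexus markers, and its value without them was not computed. In striatum the sodium leak channel Nalcn, its partner Unc80 and Nedd4l rose after conditioning (log2 0.26, 0.22 and 0.39), and Rimbp2, which ties calcium pores to release sites, Nedd4l and Unc80 after context (0.43, 0.45 and 0.22). At baseline, 15 of 37 partners were higher in hippocampus (24.2% of all genes) and 10 higher in striatum (19.9% of all genes).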

How the data were processed

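The deposited file is a table of whole-number counts per gene for 32 libraries, which the authors made from reads of stranded, polyA-selected libraries sequenced in pairs. Per the submitters' processing notes, the build was mm10 and the tools bcl2fastq 2.20.0, STAR 2.6 and DESeq2, with no roles given. The counting step is not given in the sources used here. Symbols, positions and exon lengths came from GENCODE M21, which matched 54079 of 54146 identifiers. The 67 without a match, at most 0.0264% of a library's counts, took no part as members.

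Groups were taken from the labels. Genes were filtered with filterByExpr, scaled by TMM and tested with the quasi-likelihood F test of edgeR 4.0.16 (limma 3.58.1, R 4.3.3), with 1 mean per group, on the 16 libraries of a region, or on all 32 for comparisons of regions. P-values were adjusted by Benjamini and Hochberg over all genes tested, and called means an adjusted p under 0.05. Tested members numbered 39 in hippocampus, 41 in striatum and 42 over both. Intervals of count ratios are exact and, like the limit of 3 counts for a count of 0, cover counting error only. The test was run on simulated counts of the context comparisons, with 50 genes changed at each fold. The changed genes were drawn from those with an average log2 CPM above 1, so the rates do not cover sparser genes. In hippocampus and striatum it recovered 92% and 86% of 2-fold, 52% and 58% of 1.5-fold, and 6% and 4% of 1.25-fold changes. For the region difference it recovered 74%, 34% and 4%. The simulated drug fits called 79 and 78 genes in all, far fewer than the drug comparisons here, so these rates do not carry over directly.

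By rule, values by library are given for members called in at least 3 drug comparisons and for the 4 members called most strongly higher in each region at baseline. Further values by library, such as those of Scn3a, Cacng3, Cacng5, Scn11a, Scn2a, Scn2b and Hcn4 in the drug comparisons, were printed outside this rule. Of the 42 members, 39 are named and drawn and the others are not reported here, though counts, medians and class sums hold all 42. Other called members are named with their log2 fold change, and up to 3 partner genes per drug comparison. Members, lists and this rule were chosen with earlier results of these data known. Same-numbered libraries deviated together (every r above 0.1) in hippocampus after context (0.2 to 0.417) and at baseline (0.145 to 0.43). They were taken as paired there by this rule, not by a label. The block itself ran over all libraries of a fit, also those of comparisons not taken as paired. The own number gave the highest r for 3 of 4 CI-994 libraries after context and 2 of 4 hippocampal libraries at baseline. Hippocampus after conditioning also had 3 of 4, with r down to −0.0619, and was not taken as paired. Alternatives were other scalings, GC and length offsets, the Wald test of DESeq2 1.42.0, no count filter, a replicate block, a term that sets replicates 1 and 2 apart from 3 and 4, smaller fits and left-out libraries.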

Additional observations from a re-analysis of the deposited data

Results flagged for a closer look

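In each group of 4, the library farthest from the rest was compared with the spread of the group for 12 genes, 79 groups in all, and 4 groups held a library set apart by more than Dixon's 95% limit. Chance marks about 1 in 20 groups, which is near the share flagged here. Replicate 2 of CI-994 conditioning striatum, one of the libraries low in medium spiny neuron markers, was highest for 2 of these genes. There Cacng5 stood at 55.2 CPM, against 15.0 to 19.0 in the other three, and Scn10a stood at 0.564 CPM against 0.128 to 0.180. Scn10a gave at most 19 counts in any striatal library, with a median of 5.5.

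Replicate 2 of vehicle conditioning hippocampus was high for the T-type pore Cacna1g, at 58.4 CPM against 39.3 to 39.7. It was low for the sodium pore Scn2a, at 371 CPM against 433 to 446.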

How the results depend on the processing

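For the calls named in the drug comparisons and the 8 strongest at baseline, no alternative run reversed the direction; the other baseline calls were followed by their count alone. In hippocampus after conditioning, where 0 members passed, the count was 1 with DESeq2 size factors, 5 with GC and length offsets, 2 in the Wald test, 3 with the replicate block, 2 with the batch term and 1 in replicates 1 and 2 alone. In hippocampus after context (1 member) it was 4 with DESeq2 size factors, 0 with library size scaling, 11 with GC and length offsets, 4 in the Wald test, 0 with no count filter, 6 with the replicate block, 17 with the block and GC and length offsets (added after seeing the data), 5 with the batch term, 0 with only the groups compared, and 0 in replicates 1 and 2 and 0 in replicates 3 and 4 alone. In striatum after conditioning (6) it was 12 with GC and length offsets, 3 with only the groups compared, 1 in replicates 1 and 2 and 2 in replicates 3 and 4. In striatum after context (11) it was 5 with library size scaling, 7 with no count filter, 0 in replicates 1 and 2 and 5 in replicates 3 and 4. The region difference had 1 member in the Wald test after conditioning and 1 with only the groups compared after context. The replicate block moved no other count by over 1.5 times, with 34 members at baseline. With 1 library left out, counts ran from 0 to 2, from 0 to 5, from 4 to 9 and from 4 to 11 in those 4 drug comparisons, from 30 to 33 at baseline, and were 0 for conditioning, interactions and region differences. The cause of these moves was not tested, except that fits on pairs of replicates hold fewer libraries. Where a member count of an alternative run stands without the share of all genes called, it was not set against that share.

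Over all genes, calls in hippocampus after conditioning were 3797, against 2358 without the libraries apart and 1642 and 1555 in the pairs of replicates. After context they were 3612, against 5624 with GC and length offsets, 6646 with the block added, and 1497 and 1625 in the pairs. In striatum they were 4417 against 1399 and 2329 after conditioning, and 4524 against 1519 and 2146 after context, in the pairs. The 51 and 119 genes of the region differences ranged from 0 to 169 and from 0 to 279.

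Even at these depths Scn10a, Scn11a and Cacng6 had few counts in one region or both, so their ratios are loose.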
